A study of Mus musculus with 4 samples.

Results

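Atoh1, Nhlh1, Nhlh2, Neurod1 and Neurod2 are 5 basic helix-loop-helix (bHLH) transcription factors that cerebellar granule neurons use in succession, and they were followed here from dividing to neuronal cells of 4 mouse medulloblastomas. They were chosen by name, and all 5 were found among the 15002 genes of each tumour's table. The tumours formed 1 group of untreated mice at postnatal day 16, each carrying the hGFAP-Cre driver, the SmoM2 allele and homozygous floxed alleles of Prkaa1 and Prkaa2, the genes of both catalytic subunits of AMP-activated protein kinase. SmoM2 is an activated form of the Sonic hedgehog (SHH) receptor component Smoothened, switched on where hGFAP-Cre, which acts in stem cells that give rise to many cerebellar cell types, has recombined. Single cells were profiled by Drop-seq, which tags each mRNA near its 3′ end with a cell barcode and a unique molecular identifier (UMI). Tumours that kept both kinase genes were not analysed here, so every comparison lies between cells of the same 4 tumours.

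Proneural bHLH proteins pair with the widely expressed E proteins and bind the E-box, the letters CANNTG, to switch on neuronal genes. In the developing cerebellum Atoh1 marks dividing granule cell progenitors and is needed for SHH to drive their division. Nhlh1 and Nhlh2 are closely related factors of newly formed neurons, Neurod1 drives granule cells out of division and into differentiation, and Neurod2 acts in maturing and mature neurons.

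The 5 genes lie on different chromosomes (GENCODE annotation, GRCm38). Atoh1 is a single-exon gene at chr6:64729125-64731245 on the plus strand. Nhlh2 lies at chr3:102010076-102015492 on the plus strand and Nhlh1 at chr1:172052292-172057573 on the minus strand. Neurod1 lies at chr2:79452521-79456751 and Neurod2 at chr11:98325415-98329648, both on the minus strand with 2 exons. Neurod1 overlaps Cerkl on the same strand and the lincRNA Gm26755 on the opposite strand, which had 67 and 32 UMIs in the summed cells against 4220 UMIs of Neurod1 in all cells. Whether counting used the strand is not given in the sources used here.

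The stretches just upstream of the start sites are printed because the results turn on a gene that falls as 4 others rise, and these proteins bind E-boxes. Sequences are from RefSeq (GRCm38.p6), 5′ to 3′ on the gene's own strand, ending before the first annotated transcript base, with every CANNTG in capitals. They cover chr6:64728875-64729124 (plus strand), chr3:102009895-102010075 (plus), chr1:172057597-172057846 (minus) and chr11:98329649-98329895 (minus).
Atoh1: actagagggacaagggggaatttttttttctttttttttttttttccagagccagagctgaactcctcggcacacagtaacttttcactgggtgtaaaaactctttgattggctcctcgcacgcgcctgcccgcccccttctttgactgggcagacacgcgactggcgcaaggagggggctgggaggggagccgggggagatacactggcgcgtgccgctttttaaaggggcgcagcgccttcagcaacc
Nhlh2: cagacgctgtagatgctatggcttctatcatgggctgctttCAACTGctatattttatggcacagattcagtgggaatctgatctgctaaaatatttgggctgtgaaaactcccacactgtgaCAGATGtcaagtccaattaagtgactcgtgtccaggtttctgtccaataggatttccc
Nhlh1: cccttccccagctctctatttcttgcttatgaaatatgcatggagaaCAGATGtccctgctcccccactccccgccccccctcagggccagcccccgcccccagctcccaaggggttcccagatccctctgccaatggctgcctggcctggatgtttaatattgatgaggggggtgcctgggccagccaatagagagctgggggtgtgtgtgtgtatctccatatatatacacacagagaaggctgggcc
Neurod2: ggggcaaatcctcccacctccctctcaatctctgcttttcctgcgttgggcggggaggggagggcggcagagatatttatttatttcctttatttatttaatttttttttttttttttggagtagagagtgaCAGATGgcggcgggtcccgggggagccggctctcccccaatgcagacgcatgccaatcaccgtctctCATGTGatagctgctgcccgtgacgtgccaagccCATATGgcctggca
In the 250 bases before each RefSeq start, Atoh1 had 0 matches to CANNTG, Neurod1 and Nhlh1 had 1, Nhlh2 had 2 and Neurod2 had 3. Each of Nhlh1, Nhlh2 and Neurod2 held 1 match to CAGATG, starting 203, 127 and 118 bases before the RefSeq start. The printed stretches of Nhlh2 and Neurod2 end short of that start, before the first GENCODE transcript base. For these 2 genes the distances therefore do not count from the last printed letter. CANNTG reads the same on both strands and occurred in 66.2% of 32851 promoters of this length, and CAGATG or its reverse complement CATCTG in 14.4%. A match describes letters only and is not a measured binding site.

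A barcode with at least 500 UMIs was taken as a cell, which left 3222 of 6734 barcodes (766, 807, 566 and 1083 in tumours 1 to 4) with 3272526 UMIs and tumour medians of 749 to 972 UMIs. No barcode was shared between libraries. Libraries 1 and 2 stood apart from libraries 3 and 4: the median mitochondrial share was 10.2% and 11.6% against 2.33% and 1.79%, and whole-tumour profiles correlated with r of 0.938 and 0.936 within these pairs and 0.690 to 0.825 between them. The main values of the 5 genes are therefore given for every tumour, and their calls between neuronal and dividing cells within each pair. Granule-lineage Zic1 stood at 992 to 1096 UMIs per 1000000 UMIs (CPM) in all 4 tumours and the SHH target Gli1 at 43.5 to 236 CPM. Prkaa1 and Prkaa2 had 3 to 16 and 5 to 14 UMIs per tumour, and 3′ tags outside a deleted stretch do not check a deletion. Each cell was given the state whose marker list had the highest Pearson residual, if this reached 1.5, from lists that hold none of the 5 genes. This gave 623 G2/M cells, 453 S-phase cells, 241 SHH-responsive cells, 623 early neuronal cells and 268 late neuronal cells, with 954 cells unassigned. A further 60 vessel, immune and oligodendrocyte-lineage cells, types that should lack these genes, are given for comparison as non-lineage cells. Their UMIs of the 5 genes can come from free RNA or from barcodes that hold more than 1 cell, which cannot be told apart here: 15 of their 24 Neurod1 UMIs were in 3 cells of tumour 2, and 1 cell held 4 of the 5 genes.

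By the mean of 4 tumours Atoh1 was highest in SHH-responsive and S-phase cells and lowest in early neuronal cells, an order that not every tumour kept: in tumour 1 SHH-responsive cells (21.5 CPM) were below G2/M cells (65.8 CPM), and in tumour 3 late neuronal cells (0) were below early ones (10.4 CPM). Its 295 UMIs were spread thinly, with at most 3 UMIs in any assigned cell. In dividing cells (G2/M and S together) it stood at 93.4, 48.5, 122 and 115 CPM in tumours 1 to 4. In neuronal cells (early and late together) it stood at 19.1, 28.9, 7.92 and 66.4 CPM. Every tumour was lower in its own neuronal cells, although the neuronal value of tumour 4 lay above the dividing value of tumour 2. The log2 fold change was -1.40 (SE 0.32, n = 4 tumours, lower in 4 of 4, edgeR quasi-likelihood adjusted p = 1.02e-04), and 17.6% of the 7607 genes tested were called lower in this comparison. Without tumour 4 the fall was -2.01, and with cells of at least 1000 UMIs only it was -1.001 and no longer passed (edgeR adjusted p = 0.0842). None of the 60 non-lineage cells had an Atoh1 UMI, which allows a share of up to 5%.

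Within dividing cells Atoh1 sat towards S phase by CPM, a contrast picked out after its values were seen and not tested. S-phase cells had 140.5, 66.1, 147 and 147.5 CPM and G2/M cells 65.8, 38.3, 99.8 and 93.1 CPM. Neurod1 ran the other way, with 281, 650, 354 and 332 CPM in S-phase cells and 598, 868, 499 and 600.5 CPM in G2/M cells. Nhlh2 was likewise lower in S-phase than in G2/M cells in all 4 tumours, at 183 ± 81.1 against 278 ± 81.5 CPM (mean ± SD, n = 4). Nhlh1, at 164 ± 69.6 and 179 ± 26.2 CPM, went in no single direction.

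Nhlh1 and Nhlh2 both rose in neuronal cells, from levels in dividing cells that are set beside the non-lineage cells further on. Nhlh1 stood at 138, 178, 162 and 209 CPM in dividing cells and at 411, 352, 943 and 926 CPM in neuronal cells of tumours 1 to 4. Nhlh2 stood at 259, 323, 131 and 249 CPM in dividing cells and at 626, 727, 555 and 868 CPM in neuronal cells. Each tumour's neuronal value was above all 4 dividing values for both genes, as was so for 7.59% of all genes tested. The log2 fold changes were 1.59 (SE 0.16, edgeR adjusted p = 4.91e-20) for Nhlh1 and 1.43 (SE 0.15, edgeR adjusted p = 1.90e-19) for Nhlh2, higher in 4 of 4 tumours. With states set by the most marker UMIs in place of the residual, Nhlh1 gave 0.83 and did not pass (edgeR adjusted p = 0.0602).

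Neurod1 showed a steep step. Dividing cells had 481, 788, 432 and 495 CPM and neuronal cells 2777, 2857, 4413 and 3958 CPM, with no overlap. The log2 fold change was 2.65 (SE 0.11, higher in 4 of 4 tumours, edgeR adjusted p = 4.45e-99). The step also showed in single cells: 160 of 623 early neuronal cells carried 5 or more Neurod1 UMIs, against 12 of 623 G2/M cells.

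Neurod2 was scarce before the neuronal states. It had 17 UMIs in all dividing cells, at 10.4, 12.1, 22.5 and 10.9 CPM, and 182, 69.3, 301 and 152 CPM in neuronal cells, again with no overlap. The log2 fold change of 3.60 (SE 0.33, higher in 4 of 4 tumours, edgeR adjusted p = 1.15e-23) was the largest of the 5 genes. All 4 later genes were thus called higher, in a comparison that called 28.5% of all genes tested, with 11% of all genes tested called higher.

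**Figure D1:**
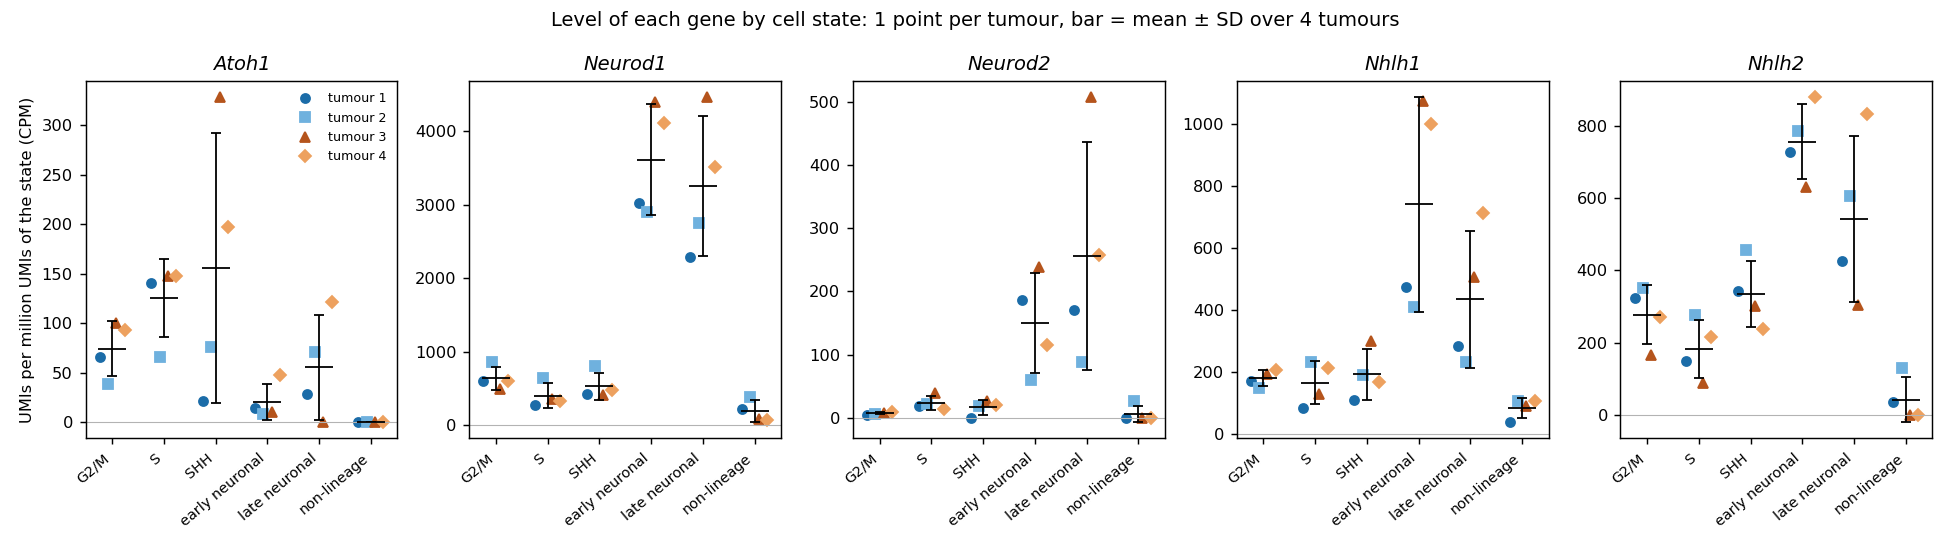
UMIs per 1000000 UMIs (CPM, vertical axis, from 0, own scale per gene) of the 5 genes in 5 cell states and in vessel, immune and oligodendrocyte-lineage cells (non-lineage). Points are tumours and bars the mean ± SD of 4 tumours; the neuronal points of Neurod1 and Neurod2 lie above all dividing points, and those of Atoh1 are mostly below.

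The pairs of libraries gave the same directions. In tumours 1 and 2 alone, the log2 fold changes of Atoh1, Nhlh1, Nhlh2, Neurod1 and Neurod2 between neuronal and dividing cells were -1.57, 1.14, 1.24, 2.28 and 3.40. In tumours 3 and 4 alone they were -1.17, 2.05, 1.82, 3.17 and 3.87. All 10 values passed (edgeR adjusted p at most 0.0410), and whether the pairs differ was not tested. Scaling moved the counts over all genes but no member's call: with upper-quartile scaling 50.1% of calls were higher in neuronal cells against 38.5%, and the median log2 fold change of all genes moved from -0.12 to -0.01. Marker lists of other cell types also differed between states. The astrocyte list stood at 344 to 989 CPM in dividing and 270 to 1464 CPM in neuronal sums, and the list for Purkinje cells at 9.22 to 63.8 and 43.2 to 333 CPM. The list for unipolar brush cells, neurons that also come from the rhombic lip (3 of its 4 genes in the tables), stood at 0 to 19.6 CPM in dividing sums, 42.1 to 151 CPM in early neuronal sums and 15.2 to 338 CPM in late neuronal sums. The part of these lists in the results was not tested.

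Between neighbouring states, the calls of the 5 genes came mainly at the entry into the early neuronal state. Between SHH-responsive and dividing cells none of the 5 genes passed, in a comparison that called 1.75% of genes. Atoh1 was uneven there, at 21.5, 76.3, 328 and 197 CPM in the SHH-responsive cells of tumours 1 to 4, and its log2 difference of 0.47 (SE 0.33) had an edgeR adjusted p of 0.74. The other 4 genes had log2 differences of -0.09 to 0.36, with edgeR adjusted p of 0.66 to 0.97.

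From the SHH-responsive to the early neuronal state all 5 genes changed, where 9.41% of genes were called, 5.82% as higher and 3.59% as lower. Neurod1 went from 430, 801, 410 and 477 CPM to 3025, 2905, 4399 and 4113 CPM. Neurod2 went from 0, 19.1, 27.3 and 20.7 CPM to 187, 59.8, 238 and 116 CPM. The log2 fold changes were 2.89 (SE 0.17) for Neurod1, 3.07 (SE 0.59) for Neurod2, 2.14 (SE 0.25) for Nhlh1 and 1.39 (SE 0.22) for Nhlh2, with edgeR adjusted p of at most 1.08e-05. The 2 states did not overlap for any of these 4 genes, as was so for 4.6% of all genes in this direction.

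Atoh1 fell by 2.51 on the log2 scale at this step (SE 0.48, lower in 4 of 4 tumours, edgeR adjusted p = 1.13e-05), to 14.4, 8.55, 10.4 and 47.4 CPM in early neuronal cells. The groups overlapped, through the low SHH-responsive value of tumour 1. Without tumour 4 the value was -3.19; in tumours 1 and 2 alone it was -1.96 and did not pass (edgeR adjusted p = 0.37), and with states by most marker UMIs it was -1.25 (edgeR adjusted p = 0.0616). Without the replicate block, the fit with no term for the tumour, Nhlh2 gave 1.32 and did not pass (edgeR adjusted p = 0.0748).

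Between the early and the late neuronal state only Nhlh1 of the 5 genes passed. Nhlh1 fell from 475, 410, 1076 and 1001 CPM in early neuronal cells to 284, 231, 507 and 712 CPM in late neuronal cells (log2 fold change -0.92, SE 0.21, lower in 4 of 4 tumours, edgeR adjusted p = 0.00302), in a comparison that called 0.513% of genes and 0.342% as lower. That call ended under 11 of 20 alternatives, with the difference still negative. These were each single tumour left out (edgeR adjusted p of 0.0503 to 0.263), DESeq2 (adjusted p = 0.45), no replicate block (edgeR adjusted p = 0.9996), the filterByExpr filter (0.0553), a residual of at least 2.5 (0.101), cells of at least 1000 UMIs (0.103), and tumours 1 and 2 (0.718) or 3 and 4 (0.199) alone. Nhlh2 was lower in the late state in 4 of 4 tumours without passing (log2 difference -0.64, edgeR adjusted p = 0.10). Neurod1 (-0.38, edgeR adjusted p = 0.25) and Neurod2 (0.49, edgeR adjusted p = 0.71) did not pass either. Atoh1 was higher in late than in early neuronal cells in 3 of 4 tumours, at 28.4, 71.2, 0 and 121 CPM, without passing (log2 difference 1.28, SE 0.60, edgeR adjusted p = 0.53). Neurod2 was at 171, 89.0, 507 and 258 CPM in late neuronal cells, higher than in early ones in 3 of 4 tumours. With states by most marker UMIs the differences of Atoh1 and Neurod2 turned to -2.17 and -0.57, also without passing.

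The order of the genes was summarised as a position, the mean stage weighted by CPM, with dividing cells as 1, SHH-responsive as 2, early neuronal as 3 and late neuronal as 4. A gene with the same CPM in all 4 stages would have a position of 2.5. Atoh1 came first, at 1.86, 2.5, 1.76 and 2.37 in tumours 1 to 4 (2.12 ± 0.37, mean ± SD), and tumour 2 was at that even value. Nhlh2 (2.84 ± 0.14) and Nhlh1 (2.90 ± 0.16) followed, then Neurod1 (3.19 ± 0.12), and Neurod2 came last at 3.41, 3.25, 3.55 and 3.53 (3.43 ± 0.14). A position is a weighted mean and not a time of onset. UMIs that are even over cells, such as from free RNA, move it towards 2.5 and were not removed. As given below, the interval of the Nhlh1 level in dividing cells overlapped that of non-lineage cells. Of the 10 pairs of genes, 9 had the same order in all 4 tumours, each with an exact sign-flip permutation p of 0.13, the smallest that 4 tumours allow (0.139 adjusted over the 10 pairs). Neurod2 was later than Neurod1 by 0.20 to 0.29 in every tumour. Nhlh1 was later than Nhlh2 in 3 tumours and earlier in 1 (exact permutation p = 0.375), so these neighbours were not ordered.

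**Figure D2:**
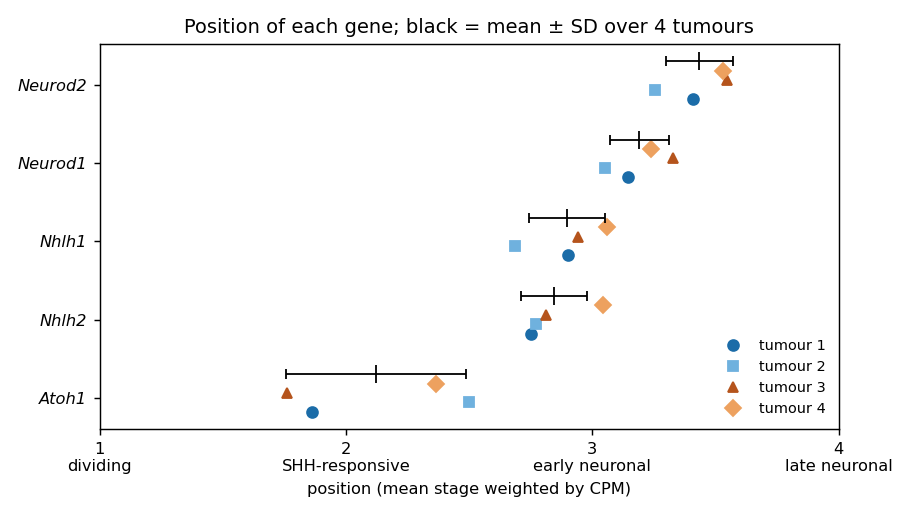
Position of each gene along the 4 stages (horizontal axis) in each tumour (points), with the mean ± SD of 4 tumours in black. Atoh1 is the first and Neurod2 the last gene in every tumour, and Nhlh1 and Nhlh2 share the same stretch.

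Cells were also placed along an axis that needs no state but uses the same marker lists, in 5 equal ranges by the neuronal share of their dividing, SHH and neuronal marker UMIs. Neurod1 went from 455 to 581, 810, 1735 and 4130 CPM over these ranges (means of 4 tumours), each above the one before. Atoh1 was highest in the second range, at 129 ± 73.7 CPM, and lowest in the last, at 22.1 CPM. Neurod2 stayed at 11.4 and 7.14 CPM in the first ranges and reached 185 CPM in the last. Nhlh1 went from 131 to 213, 283, 479 and 691 CPM and Nhlh2 from 220 to 728 CPM, a gradual course in place of the step seen between states.

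**Figure D3:**
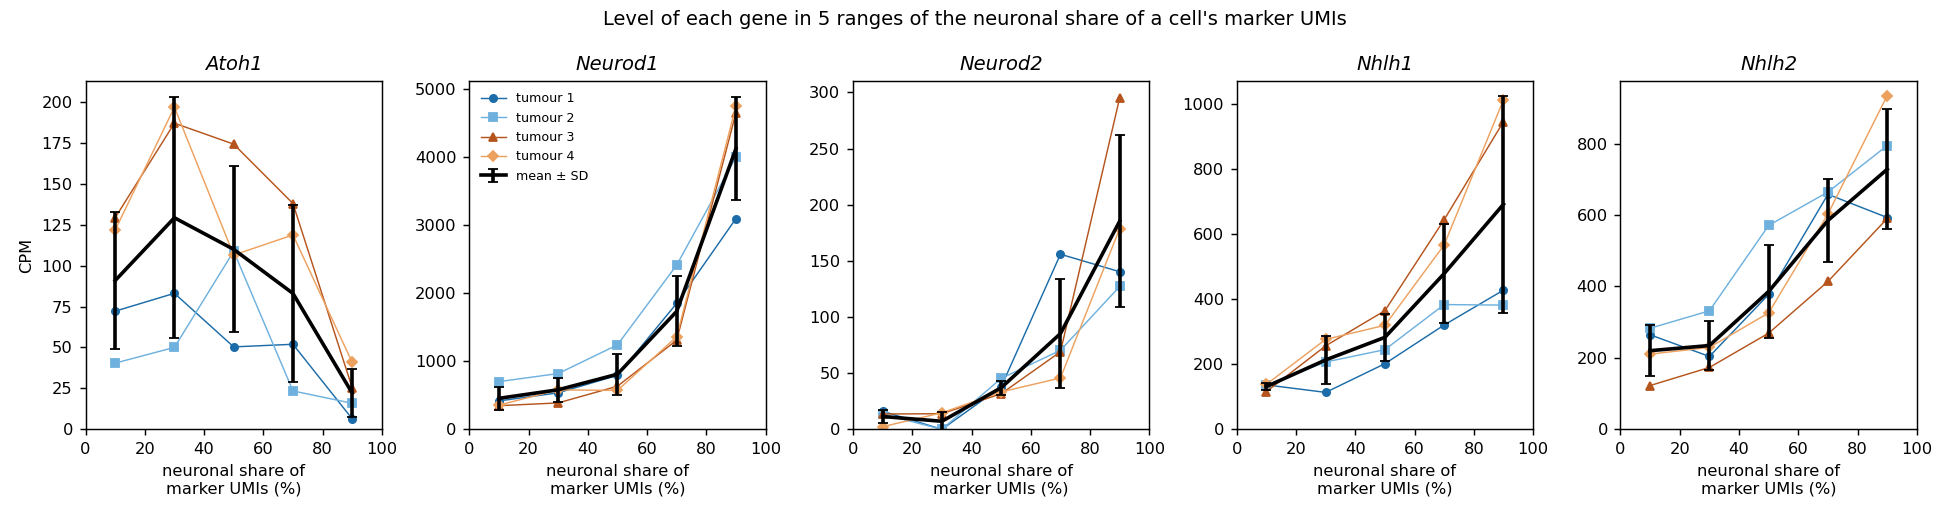
Level of each gene (CPM, own scale from 0) against the neuronal share of a cell's marker UMIs in 5 ranges (%). Coloured lines are tumours and black the mean ± SD; Atoh1 drops in the last range, where Neurod1 and Neurod2 are highest on average.

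To compare cells of different depth, each cell was thinned to 500 UMIs. A Neurod1 UMI was then found in 69.5% of early neuronal cells (80.7% before thinning), 23.1% of G2/M cells (40.6%) and 10% of the non-lineage cells (20%), with exact 95% intervals of 65.7 to 73.1%, 19.9 to 26.6% and 3.76 to 20.5%. The median depth was 764, 1057 and 1402.5 UMIs. S-phase cells had Neurod1 in 17.0% (interval 13.7 to 20.8%; 30.02% before thinning). The intervals of both dividing states overlapped that of the non-lineage cells. Nhlh1 and Nhlh2 were found in 8.19% and 11.9% of G2/M cells (16.5% and 26.2% before thinning) and in 3.33% each (0.406 to 11.5%) of non-lineage cells (10% and 3.33% before thinning), and in 7.29% and 7.95% of S-phase cells (16.1% and 16.3% before thinning). The thinned intervals of both dividing states overlap those of the non-lineage cells. In early neuronal cells they reached 28.7% and 28.1%. Neurod2 was in 0.321% of G2/M and 0.883% of S-phase cells (0.963% and 2.21% before thinning), below the up to 5% that 0 of 60 non-lineage cells allows. Atoh1 was in 3.21% of G2/M and 5.52% of S-phase cells (8.83% and 12.4% before thinning), and in 0 of 60 non-lineage cells with or without thinning. Both thinned shares lie below the exact upper limit of 5.96% for 0 of 60 cells. Levels from all UMIs are given over the cells of 4 tumours together, with exact intervals that cover counting error only and leave out the spread between cells and tumours. Nhlh2 stood at 245 CPM (219 to 274) in dividing and 57.2 CPM (21.0 to 125) in non-lineage cells, Neurod1 at 536 (498 to 578) and 229 CPM (147 to 341), and Atoh1 at 98.6 (82.3 to 117) and 0 CPM (up to 35.2). For Nhlh1, at 180 (157 to 204) and 85.9 CPM (39.3 to 163), and Neurod2, at 12.99 (7.57 to 20.8) and 9.54 CPM (0.242 to 53.2), the intervals overlapped. The separation of the first 3 genes rests on pooling: within single tumours the intervals were apart for Neurod1 in tumours 2 and 4, for Nhlh2 in tumour 4 and for Atoh1 in none.

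**Figure D4:**
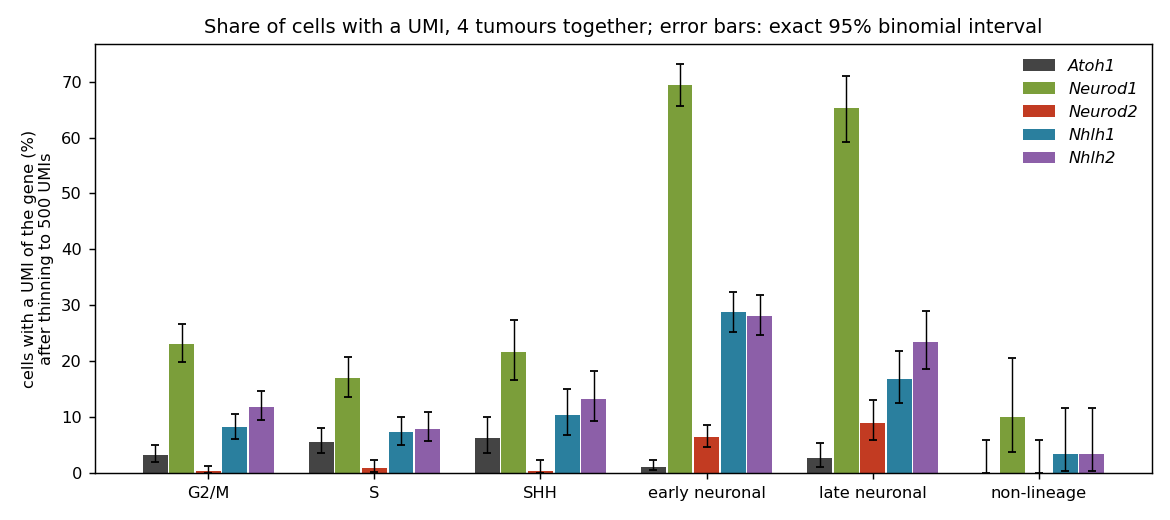
Share of cells (%) with at least 1 UMI of each gene after thinning to 500 UMIs, by state, 4 tumours together, with exact 95% binomial intervals that cover counting error only. Neurod1 bars of early and late neuronal cells stand at 69.5% and 65.3%, against 10% in non-lineage cells.

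The proportions of the genes also differed between states. Per Neurod1 UMI there were 0.288, 0.226, 0.375 and 0.423 Nhlh1 UMIs in the dividing cells of tumours 1 to 4, and 0.148, 0.123, 0.214 and 0.234 in neuronal cells. For Nhlh2 the ratios were 0.540, 0.410, 0.302 and 0.504 in dividing cells and 0.226, 0.255, 0.126 and 0.219 in neuronal cells. Both ratios were higher in dividing cells in 4 of 4 tumours. Over all tumours the Nhlh1 ratio was 0.335 in dividing, 0.190 in neuronal and 0.375 in non-lineage cells. The Nhlh2 ratio was 0.457, 0.207 and 0.25, and the non-lineage value rests on 6 Nhlh2 UMIs, 5 of them in 1 cell of tumour 2. The Nhlh1 to Nhlh2 ratio itself split the libraries, at 0.580 and 0.522 in tumours 1 and 2 and 1.47 and 0.996 in tumours 3 and 4.

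Co-detection asks whether 2 genes are found in the same cells more often than independence within 10 bins of UMI depth gives. Over 3162 tumour-lineage cells, Neurod1 and Neurod2 were found together in 104 cells against 65.4 expected (ratio 1.59, exact 95% Poisson interval 1.30 to 1.93). Tumours 1 to 4 gave 1.41, 1.17, 1.83 and 1.91. Of the 134 cells with Neurod2, 77.6% also had Neurod1. Neurod1 was found with Nhlh1 in 452 cells (ratio 1.34) and with Nhlh2 in 522 cells (ratio 1.25), Nhlh1 with Nhlh2 in 270 cells (1.37), and Neurod2 with Nhlh2 in 51 cells (1.41). These 5 pairs were above 1 in all 4 tumours, with an exact sign-flip permutation p of 0.13 each (0.225 adjusted over the 9 pairs tested).

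Over all cells, part of that excess went with the states. With the expected count taken within state, the ratios of these 5 pairs were 0.992 to 1.13, and among early neuronal cells Neurod1 and Nhlh1 were found together in 207 cells against 208.7 expected (ratio 0.992). The same pair had ratios of 1.25 (1.002 to 1.54) in dividing cells, 1.46 (0.818 to 2.41) in SHH-responsive cells and 1.29 (1.03 to 1.60) in unassigned cells. Neurod2 and Nhlh1 went from 1.38 to 0.944. Within state Neurod1 with Nhlh1 was at 1.12 (1.02 to 1.23), down from 1.34. This pair, Nhlh1 with Nhlh2 (1.05 to 1.17 over tumours), Neurod1 with Nhlh2 (1.05 to 1.18) and Neurod1 with Neurod2 (1.002 to 1.30) were above 1 within state in each tumour.

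The 4 pairs with Atoh1 had ratios below 1 over the 4 tumours together. Atoh1 was found with Neurod1 in 94 cells against 116 expected (ratio 0.810, interval 0.655 to 0.991), at 1.04, 0.996, 0.719 and 0.719 in tumours 1 to 4. That interval covers counting error only, and over tumours the exact sign-flip permutation p was 0.375 (0.482 adjusted). Within state the ratio was 0.947, and 42 of 111 dividing cells with Atoh1 (37.8%) had Neurod1 as well. Atoh1 and Neurod2 were in the same cell once, against 10.7 expected (ratio 0.0935, interval 0.0024 to 0.521), and against 6.28 expected within state (0.159, interval 0.00403 to 0.887). That cell was in tumour 1, and in tumours 2 and 3, with 0.928 and 2.44 expected, the depth could not show a lack. The ratio was 0 without tumour 1, 0.183 without tumour 4 and 0.30 with cells thinned to 500 UMIs. Tumour 4 held 5.23 of the expected cells over all states, with an upper limit of 0.706 for its ratio, and within state no single tumour's interval excluded 1 (upper limit 1.06 in tumour 4). Atoh1 with Nhlh1 (0.795) and with Nhlh2 (0.957) had intervals that included 1, with exact sign-flip permutation p of 0.375 and 0.75 over tumours. The ratio with Nhlh2 was 1.47 in tumour 1. It ranged from 0.857 to 1.10 over the alternatives, and reached 1.007 with 1 tumour left out.

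**Figure D5:**
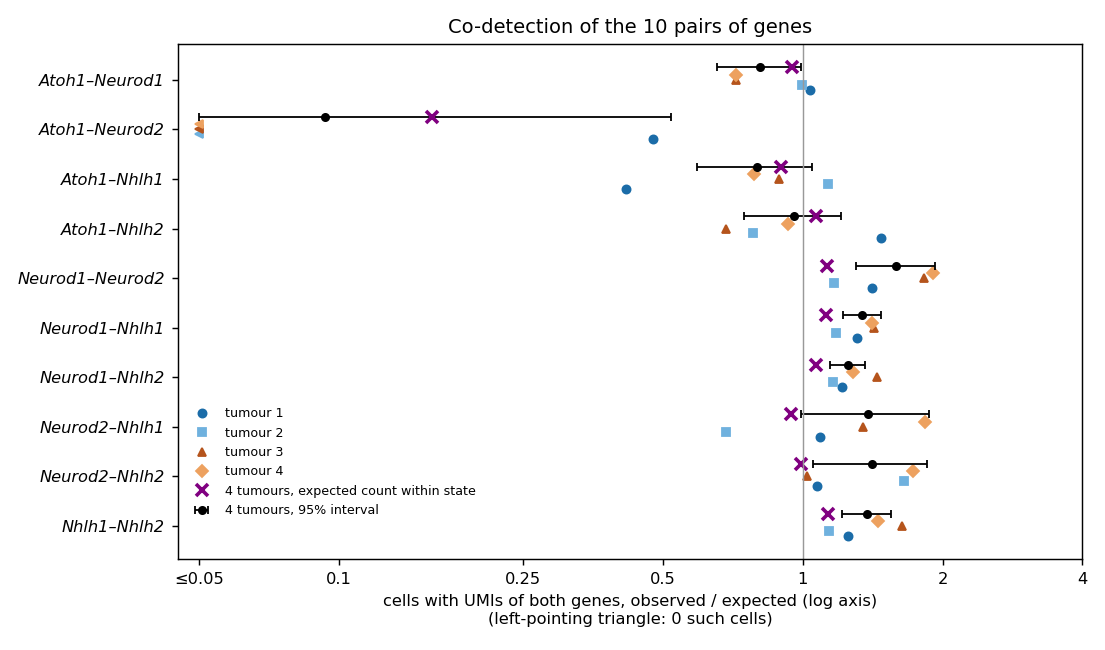
Observed over expected cells with UMIs of both genes (log axis) for the 10 pairs, per tumour (coloured), over 4 tumours with an exact 95% Poisson interval (black, cut at 0.05) and with the expected count within state (purple cross). Of the black points, the 6 pairs without Atoh1 lie above 1 and the 4 pairs with Atoh1 below it.

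Counting genes per cell, 59.6% of early neuronal cells held UMIs of at least 2 of the 5 genes, against 23.4% of G2/M, 19.9% of S-phase, 14.1% of SHH-responsive, 43.3% of late neuronal and 8.33% of non-lineage cells, without thinning. The commonest set in early neuronal cells after Neurod1 alone (159 cells) was Neurod1 with Nhlh2 (100 cells), then Neurod1 with both Nhlh genes (91 cells). No cell held all 5.

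The partners and opponents of these factors were followed by fixed lists. Among E proteins, the dimer partners, Tcf4 was higher in neuronal than dividing cells in 4 of 4 tumours (2449 ± 241 against 1559 ± 177 CPM, log2 0.54, edgeR adjusted p = 5.69e-07), Tcf3 was lower (-0.84, edgeR adjusted p = 0.0213) and Tcf12 did not pass (-0.13). Of the Id inhibitors, which bind E proteins and keep them from DNA, 2 of 4 were tested: Id2 rose (1.37, edgeR adjusted p = 1.53e-15) and Id1 did not pass. All 3 tested of 7 Hes and Hey genes fell in neuronal cells: Hes1 by 1.58, Hes6 by 1.80 and Hey1 by 1.14 on the log2 scale (edgeR adjusted p at most 0.0243), where 17.6% of all genes tested were called lower. Hes6 was lower in 4 of 4 tumours and the others in 3 of 4: Hes1 was higher in neuronal cells of tumour 2 (17.3 against 12.1 CPM) and Hey1 in those of tumour 3 (63.4 against 31.5 CPM). Hes1 and Hey1 are repressors downstream of Notch, whereas Hes6 is known to oppose Hes1. The median of this list was -1.58, against -0.12 over all genes tested.

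Of 11 other proneural bHLH genes only Bhlhe22 and Neurod6 had enough UMIs to test. Bhlhe22, a factor of maturing neurons, rose from 31.5 ± 9.48 to 153 ± 61.0 CPM (log2 2.12, edgeR adjusted p = 8.34e-11), with no overlap, and Neurod6 did not pass (0.52, edgeR adjusted p = 0.12). Of 14 fixed cascade partners 11 were tested, 5 rose and 1 fell, where 11% of all genes tested were called higher and 17.6% lower (median log2 0.78 against -0.12 over all genes). The neuronal zinc-finger genes Myt1 (2.58) and Myt1l (1.71), the corepressor gene Runx1t1 (3.62), Ebf3 (0.86) and the granule-lineage factor Pax6 (0.85) rose, and Cbfa2t3, a corepressor gene related to Runx1t1, fell by 0.85 on the log2 scale (edgeR adjusted p = 1.75e-07). At the step from SHH-responsive to early neuronal cells Myt1, Myt1l, Runx1t1, Ebf3 and Pax6 rose as well and Cbfa2t3 fell by 1.57 (edgeR adjusted p = 4.64e-11), where 5.82% of genes were called higher and 3.59% lower.

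Across the 20 sums of tumour and state, centred within tumour, each gene was compared with 4130 others by Pearson's r on log2(CPM + 10), as a description over sums that share tumours and depth. The closest gene to Nhlh1 was Nhlh2 and the reverse (r = 0.928). The closest to Neurod1 were Map1b (0.980), Ndst3 (0.980), Zic1 (0.974), Cadm3 (0.973) and Tubb2a (0.970). L1cam, Cadm3, Ank2 and Grik2 (0.947) were among the closest to Neurod2, so Cadm3 was in both lists. Kitl (0.928), Gsr, Cdca7, Sema7a and Ppia (0.875) were closest to Atoh1. After each other, Nhlh1 was followed by Apc, Tmsb4x, Myt1 and Itsn1, and Nhlh2 by Afap1, Apc, Srrm4 and Tubb2b. Atoh1 had r of -0.757 with Neurod1, -0.648 with Nhlh1, -0.586 with Nhlh2 and -0.579 with Neurod2, while the other 4 genes had r of 0.694 to 0.928 among themselves.

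Unassigned cells held 34.9% of all Atoh1 UMIs, against 17.2% of Neurod1 and 11.3% of Neurod2 UMIs, so the state sums carry less of Atoh1 than of the neuronal genes. In these 954 cells Atoh1 stood at 41.1, 56.5, 196 and 177 CPM in tumours 1 to 4. Over all cells, Atoh1 was at 52.2 and 45.6 CPM in tumours 1 and 2 and at 125 and 124 CPM in tumours 3 and 4.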

How the data were processed

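The labels describe Drop-seq libraries (protocol V3.1) of papain-dissociated tumour, and the submitters' processing notes name STAR and mm10 without versions. The authors deposited whole-number UMI counts per gene and barcode, without normalization. A further 6 tables with 11203 cell columns match no labelled sample and were not used here. The members and lists were chosen with earlier results of these data known.

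Cells had at least 500 UMIs. A Pearson residual of a list's UMIs given the cell's depth, of at least 1.5, set the state, and 310 of 3162 cells lay within 0.25 of that limit. Non-lineage cells had at least 4 distinct markers of a microglial, endothelial, mural or oligodendrocyte list. No doublets were removed in the main analysis; Scrublet (scanpy 1.11.5) marked 3, 13, 1 and 3 cells, and 98 cells reached the limit for a dividing and a neuronal list. UMIs were summed per tumour and state (20 sums) and tested with edgeR 4.0.16 in R 4.3.3 (TMM, quasi-likelihood, genes with at least 40 UMIs, Benjamini-Hochberg at 0.05) with the tumour as a replicate block. The sums of a tumour come from 1 animal, and their deviations from the state means correlated over genes with a median r of 0.269 to 0.412 per tumour (lowest 0.169). Standard errors were derived from the fold change and its F statistic. Counts of genes called leave out the state lists. The states were built from the same cells, so adjusted p-values describe how they differ. Nothing in the labels beyond the numbered titles says how the 4 tumours relate. The edgeR p-values measure how the 20 sums scatter around the fit after the block has taken out differences between tumours. Each gene's spread was drawn almost wholly to that shared over genes (965 prior degrees of freedom). A small edgeR p is therefore not a measure of a gene's own spread between tumours.

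On counts simulated for neuronal against dividing sums (7488 genes run), 26.7% of 2-fold rises, 80.9% of 4-fold rises, 34.7% of 2-fold falls and 82% of 4-fold falls were recovered, with 4.42% false calls. The simulated sums were drawn independently around tumour means with a single fixed spread for all genes. These rates hold for that setting only. Named genes were the 5 members, 5 fixed lists (E proteins, Id, Hes and Hey, other proneural bHLH, cascade partners) and, for each member, the 5 genes of at least 50 CPM with the highest r. The values of 1 gene named by this rule are not reported here. Intervals are exact at 95% and cover counting error only; the limit for 0 cells is 3 counts of the total. Alternatives covered filters, scaling, DESeq2 1.42.0, state rules, mitochondrial share, doublets, depth, thinning, single tumours, pairs of libraries and the block.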

Additional observations from a re-analysis of the deposited data

Results flagged for a closer look

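Of 60 groups of 4 tumours examined, 4 held a value whose gap to the rest exceeded Dixon's 95% critical value of 0.83, and chance alone gives about 3. Atoh1 in S-phase cells was at 66.1 CPM in tumour 2, against 140.5, 147 and 147.5 CPM in the others. Atoh1 in early neuronal cells was at 47.4 CPM in tumour 4, from 9 UMIs, against 14.4, 8.55 and 10.4 CPM. Neurod2 in dividing cells was at 22.5 CPM in tumour 3, against 10.4, 12.1 and 10.9 CPM. The Atoh1 and Neurod2 co-detection ratio was 0.476 in tumour 1, from 1 cell, and 0 in the other tumours.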

How the results depend on the processing

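Depth limits most values: Atoh1 and Neurod2 rest on 295 and 168 UMIs. No direction reversed among the called results of the 5 genes, and the genes of the fixed lists were not followed over the alternatives. Of the results that did not pass, late against early turned for Atoh1 and Neurod2. SHH-responsive against dividing spanned 0 for all 5 genes, from -0.71 to 0.92. Member calls between neuronal and dividing cells held over 20 alternatives, except Atoh1 with at least 1000 UMIs (-1.001) and Nhlh1 by most marker UMIs (0.83). The cause was not tested. Neuronal against dividing called 2171 genes, and 1438 with filterByExpr, 1352 by most marker UMIs, 1171 at 1000 UMIs, 1187 thinned, 810 and 1438 in tumours 1 and 2 or 3 and 4, and 1283 to 1878 without 1 tumour (lowest without tumour 4). SHH-responsive against dividing called 133, and 60 with DESeq2, 87 at up to 10% mitochondrial UMIs, 79 also without doublet calls and outliers, 49 at 1000 UMIs, 79 thinned, 28 and 75 in the library pairs, and 71 to 107 without 1 tumour (71 without tumour 4, 78 without tumour 3). Early neuronal against SHH-responsive called 716, and 405 by most marker UMIs, 260 at 1000 UMIs, 438 thinned, 209 in tumours 1 and 2, and 337 to 675 without 1 tumour (lowest without tumour 4). There DESeq2 put 49.8% of calls higher against 61.9%. Late against early called 39, and 15 with filterByExpr, 11 with DESeq2, 19 at a residual of 2.5, 200 by most marker UMIs, 17 at up to 10% mitochondrial UMIs, 17 also without doublet calls and outliers, 16 at 1000 UMIs, 14 thinned, 4 and 15 in the library pairs, and 8 to 20 without 1 tumour, any of which moved it by over 1.5 times. The share of higher calls there was 33.3%, 51.9% with upper-quartile scaling and 63.6% with DESeq2. By most marker UMIs, Neurod1 (-1.28) and Nhlh2 (-1.20) passed late against early, and these values and the 200 calls rest on late neuronal sums of only 5 and 4 cells (3254 and 2992 UMIs) in tumours 3 and 4.

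Without the replicate block edgeR called 995, 0, 126 and 0 genes in these 4 comparisons. In those with 0, 362 and 230 of 7607 genes had an unadjusted edgeR p under 0.05, fewer than that limit gives by chance. DESeq2 with the block called 60 and 11 at an adjusted p under 0.05, which is another model and another threshold. Leaving out the block ended the calls of Nhlh2 at the early neuronal step and of Nhlh1 in late neuronal cells and no other member's call.

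On the 5 ranges, spaced evenly from 1 to 4 to match the stages, Neurod1 and Nhlh2 had positions of 3.33 and 2.98. Thinned, the co-detection ratios of Neurod1 with Nhlh1, Neurod1 with Nhlh2 and Neurod2 with Nhlh2 were 1.48, 1.38 and 1.82. With the expected count within state, Neurod1 with Neurod2, Nhlh1 and Nhlh2, Neurod2 with Nhlh2, and Nhlh1 with Nhlh2 gave 1.13, 1.12, 1.07, 0.992 and 1.13.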

Other observations

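Among dividing cells, those with an Atoh1 UMI were set beside those without. Neurod1 stood at 515 CPM (exact 95% interval 417 to 628) in the 111 cells with Atoh1 and at 540.1 CPM in the rest, lower with Atoh1 in 2 of 4 tumours. Nhlh1 stood at 111 CPM (69.0 to 170) against 191 CPM, lower with Atoh1 in 3 of 4 tumours, and Nhlh2 at 249 against 245 CPM. Neurod2 had 0 UMIs in cells with Atoh1 (up to 19.6 CPM) and 17 in the rest (15.2 CPM), so no difference was detectable at this depth. Over all tumour-lineage cells, which mix the states, Neurod1 stood at 623 CPM with Atoh1 and 1410 CPM without, lower in 4 of 4 tumours. In SHH-responsive cells it stood at 364 CPM in 25 cells with Atoh1 and 558 CPM in the rest. In neuronal cells it stood at 2224 CPM in 26 cells with Atoh1 and 3512 CPM in the rest. Both were lower with Atoh1 in 4 of 4 tumours, where 1 tumour in each state had only 1 such cell. Tests of these values over tumours were not run.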
